A study of Mus musculus with 6 samples.

Results

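The natural killer cell receptor genes Klrd1, Klre1, Klrc1, Klra7, Klra8, Klrk1 and Klrb1f were measured in uterine RNA of female mice at 3.5 days post coitum. Members were all probe sets annotated to exactly 1 of these gene symbols, which gave 1 probe set a gene, or 7 probe sets of the 1382 deposited and 7 genes of 987 named. The groups were Stat3 f/f, with floxed and intact Stat3 alleles (3 Affymetrix arrays), and Stat3 d/d, a name for deletion of both alleles (3 arrays). The labels do not say in which cells the alleles were deleted. The labels name no Cre driver, strain or age and do not say how many animals an array holds, so the p-values reflect spread between arrays that may be technical replicates. Both groups were collected at the same day, with no other allele or agent named.

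Klr genes encode C-type lectin-like receptors that natural killer cells, and some T cells, use to sense MHC class I and stress-induced proteins on other cells. Inhibitory receptors carry a tyrosine motif in the cytoplasmic tail that recruits phosphatases such as SHP-1 (Ptpn6), whereas activating receptors signal through adaptor proteins. Klrd1 (CD94) and Klre1 are chains that form pairs with either kind of receptor. In the uterus, natural killer cells are a major leukocyte population of early pregnancy and act on the vessels and stroma of the implantation site.

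All 7 genes read higher in Stat3 d/d. Klra8, an activating receptor of the Ly49 family, rose 14.7-fold, Klra7, an inhibitory receptor of the same family, 9.07-fold, and Klrd1, the shared chain, 4.79-fold. Klrc1, Klre1, Klrb1f and Klrk1 rose between 1.77-fold and 2.42-fold. Activating and inhibitory receptors were found both among the larger and among the smaller rises. These folds are ratios of mean intensity over 3 arrays a group. For every gene but Klrd1 the Stat3 f/f mean lay near the lowest values of the table, so the size of the fold depends on how dim values are treated. With a pseudocount of 16 in place of 1 on the log2 scale, the change of Klra8 was 1.91 in place of 3.52, that of Klrd1 1.63 in place of 2.20, and that of Klra7 1.30 in place of 2.83, below Klrd1. The other 4 genes then changed by 0.28 to 0.52.

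The deposited table had been selected on this same comparison, which bounds what can be read from it. Each of its 1382 probe sets has groups that do not overlap and a ratio of group means of at least 1.5, and all pass an adjusted p of 0.05, with 67.4% higher in Stat3 d/d. That all 7 genes were called higher is therefore read against 67.4%, and the genes were themselves chosen from this table. The targeted gene, Stat3, read 41.0% and 42.6% of the Stat3 f/f mean by its 2 probe sets, with no overlap between groups. Part of its signal thus remained in the tissue, and whether natural killer cells lacked Stat3 was not tested.

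The genes lie together on chromosome 6 in the natural killer gene complex. In the gene order of assembly GRCm38.p6, 48 protein-coding genes run from Klrb1a to Klra2, and 25 of them are Klr genes. Of these 48 genes, 9 had a probe set of their own in the table: the 7 receptors and the neighbouring lectin genes Clec7a and Clec1b. Clec7a, the beta-glucan receptor of myeloid cells, rose from 26.2 ± 4.37 to 58.8 ± 26.1 (mean intensity ± SD, n = 3), a call lost after median centring (adjusted p = 0.0734). Clec1b, a receptor of platelets and myeloid cells, fell from 7.25 ± 0.40 to 4.55 ± 0.69, a call lost with 45000 assumed tests, that is with p-values adjusted as for an assumed whole array (adjusted p = 0.232).

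Promoter windows of 300 bases, from 250 before to 50 after an annotated start, were available for 6 of the 7 genes in RefSeq (GRCm38.p6), as 9 windows. Klre1, Klra8 and Klra7 each had a further window. The windows of Klre1 overlap each other in part, as do those of Klra8. The Klra8 and Klra7 windows are shown first because these paralogs gave the largest rises, one being activating and the other inhibitory. Both windows are on the minus strand, at chr6:130129849-130130148 for Klra8 and chr6:130233273-130233572 for Klra7, and are printed 5′ to 3′ with capitals for bases not identical in their alignment.
Klra8: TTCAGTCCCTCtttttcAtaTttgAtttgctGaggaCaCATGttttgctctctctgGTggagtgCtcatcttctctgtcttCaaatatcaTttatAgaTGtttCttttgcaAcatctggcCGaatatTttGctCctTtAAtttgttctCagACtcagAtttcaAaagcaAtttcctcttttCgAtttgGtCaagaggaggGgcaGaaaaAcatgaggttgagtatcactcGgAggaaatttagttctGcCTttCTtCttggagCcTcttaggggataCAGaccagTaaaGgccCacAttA
Klra7: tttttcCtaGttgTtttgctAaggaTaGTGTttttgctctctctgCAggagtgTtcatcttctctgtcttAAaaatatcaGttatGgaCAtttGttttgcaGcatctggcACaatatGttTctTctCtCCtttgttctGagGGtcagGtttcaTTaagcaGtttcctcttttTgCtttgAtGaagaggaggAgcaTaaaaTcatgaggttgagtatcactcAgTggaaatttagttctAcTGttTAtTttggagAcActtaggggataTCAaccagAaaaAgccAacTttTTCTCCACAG
Their alignment held 231 identical bases in 311 columns (74.3%). Among the other 32 of the 33 pairs of windows from different genes, identity was between 43.7% and 56.2%. Klra8 and Klra7 each have a further window, and the other pairs of a Klra8 with a Klra7 window gave 56.2%, 47.6% and 45.9%. The probe sets of Klra8 and Klra7 both carry the suffix (x_at) that Affymetrix gives to probe sets with probes that match other transcripts. Part of either signal may come from another Klra gene, and this was not tested.

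The windows were searched for TTCNNNGAA, the spaced palindrome that STAT proteins bind, which reads alike on both strands, because the comparison concerns Stat3. Of 32851 windows of this length over all genes, 8.30% held it, and so did 2 of the 9 Klr windows. These were the window of Klrb1f on the plus strand, at chr6:129045651-129045950, and a second Klra7 window on the minus strand, at chr6:130231638-130231937. Capitals mark the matches.
Klrb1f: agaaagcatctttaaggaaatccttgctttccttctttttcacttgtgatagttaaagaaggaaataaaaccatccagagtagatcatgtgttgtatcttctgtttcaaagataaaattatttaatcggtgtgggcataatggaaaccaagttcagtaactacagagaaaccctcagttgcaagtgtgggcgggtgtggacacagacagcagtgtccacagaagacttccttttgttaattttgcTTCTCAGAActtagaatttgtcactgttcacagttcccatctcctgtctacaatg
Klra7, second start: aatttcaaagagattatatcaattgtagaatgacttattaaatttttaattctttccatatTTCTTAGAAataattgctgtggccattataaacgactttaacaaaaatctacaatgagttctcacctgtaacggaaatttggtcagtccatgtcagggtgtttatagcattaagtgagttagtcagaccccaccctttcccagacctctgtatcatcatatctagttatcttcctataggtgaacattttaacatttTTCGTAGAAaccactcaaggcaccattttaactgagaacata
The Klrb1f match spans bases 246 to 254 of its window, and the Klra7 matches span bases 62 to 70 and 259 to 267. TGTGGT, the core that RUNX proteins bind, was searched on both strands and stood in 3 of the 9 windows (1 each of Klrc1, Klre1 and Klrk1) against 16.8% of all windows. As some of the 9 windows overlap, neither count is one of separate sequences. A match is a description of letters only, and the genes with and without TTCNNNGAA included both large and small rises.

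Intensities below are RMA values on a linear scale. The lowest value in the table was 2.47, and 6 of the 7 genes had a Stat3 f/f mean below 10, as did 26.1% of the table. Readings that low lie near the floor of the scale, and the table holds no detection calls. Changes are given as Stat3 d/d minus Stat3 f/f on the log2(intensity + 1) scale, which understates changes of dim genes. Adjusted p-values come from limma over all 1382 probe sets with Benjamini-Hochberg adjustment.

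Among the shared chains, Klrd1 pairs with NKG2 proteins to bind the MHC class Ib molecule Qa-1. It read 23.3, 20.97 and 16.2 in Stat3 f/f replicates 1, 2 and 4, and 104, 108 and 78.2 in Stat3 d/d replicates 1, 2 and 3. It was the only one of the 7 genes with a Stat3 f/f mean above 10, and its lowest Stat3 d/d array was 3.36 times its highest Stat3 f/f array. The change was 2.20 (SE 0.20, adjusted p = 1.08e-05), rank 66 of 1382 from the largest rise. In bulk tissue, more cells of a type and more RNA per cell cannot be told apart, and this holds for every value below.

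Klre1, which joins Klri1 or Klri2 into inhibitory or activating pairs, read 9.10, 8.05 and 5.78 in Stat3 f/f and 16.5, 21.2 and 16.3 in Stat3 d/d. The groups did not overlap, as for every probe set of the table. The lowest Stat3 d/d array of Klre1 was 1.79 times the highest Stat3 f/f array. Its change of 1.14 (SE 0.20, adjusted p = 0.000676) was the median of the 7 genes, whereas the median over all 1382 probe sets was 0.70. Klri1 and Klri2, its partner genes, were not analysed here.

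Among the inhibitory receptors, Klra7 (Ly49G) recognises MHC class I molecules such as H2-D of some strains. It read 4.05, 3.62 and 3.35 in Stat3 f/f and 35.9, 42.3 and 21.8 in Stat3 d/d. Every Stat3 d/d array was at least 5.39 times the highest Stat3 f/f array, and replicate 3 was the lowest of them. The change was 2.83 (SE 0.23, adjusted p = 5.15e-06), rank 23 of 1382.

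Klrc1 (NKG2A), the inhibitory partner of Klrd1, lay near the floor in Stat3 f/f. It read 2.94, 3.25 and 2.82 in Stat3 f/f and 10.9, 4.55 and 6.31 in Stat3 d/d. Its Stat3 d/d arrays spread widely, with replicate 1 high and replicate 2 only 1.40 times the highest Stat3 f/f array. The change of 0.97 (SE 0.25, adjusted p = 0.00450) became 0.51 when arrays were centred on their medians (adjusted p = 0.0953), which ended the call, and 0.68 after quantile normalization (adjusted p = 0.0314), where it was kept.

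Among the activating receptors, Klra8 (Ly49H) signals through DAP12 and is known for recognising a cytomegalovirus protein; not every mouse strain carries the gene. It read 4.18, 4.52 and 4.12 in Stat3 f/f and 46.6, 94.0 and 48.3 in Stat3 d/d. Every Stat3 d/d array was at least 10.3 times the highest Stat3 f/f array, the widest gap of the 7, and replicate 2 stood above the other two. The change was 3.52 (SE 0.25, adjusted p = 1.97e-06), rank 9 of 1382.

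Klrk1 (NKG2D), which binds stress-induced ligands such as the RAE-1 and H60 proteins, changed least of the 7. It read 7.08, 5.89 and 5.83 in Stat3 f/f and 12.5, 10.1 and 10.7 in Stat3 d/d. The change was 0.73 (SE 0.17, adjusted p = 0.00262), close to the median of the table, and 47.3% of all probe sets rose more. Centring on array medians gave 0.27 (adjusted p = 0.170) and quantile normalization 0.28 (adjusted p = 0.148), and both ended the call. Both scalings were computed over the selected table alone, 67.4% of it higher in Stat3 d/d. They take off part of that rise, so array scaling cannot be told apart from the selection.

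Klrb1f (NKR-P1F), a receptor for Clr proteins of the Clec2 family that is classed as activating, read 4.44, 3.89 and 3.90 in Stat3 f/f. In Stat3 d/d it read 7.29, 11.8 and 6.46, with replicate 2 well above the other two. The change of 0.87 (SE 0.21, adjusted p = 0.00366) became 0.40 after median centring (adjusted p = 0.129) and 0.42 after quantile normalization (adjusted p = 0.0983), which ended the call. By contrast, Klra8, Klra7, Klrd1 and Klre1 kept an adjusted p under 0.05 in each scaling, with changes after median centring of 3.06, 2.36, 1.74 and 0.68. These counts of 4 after median centring and 5 after quantile normalization, where Klrc1 is the fifth, stand beside 30.5% and 31.7% of the table called higher, and a count of 4 with 45000 assumed tests beside 28.0%.

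**Figure D1:**
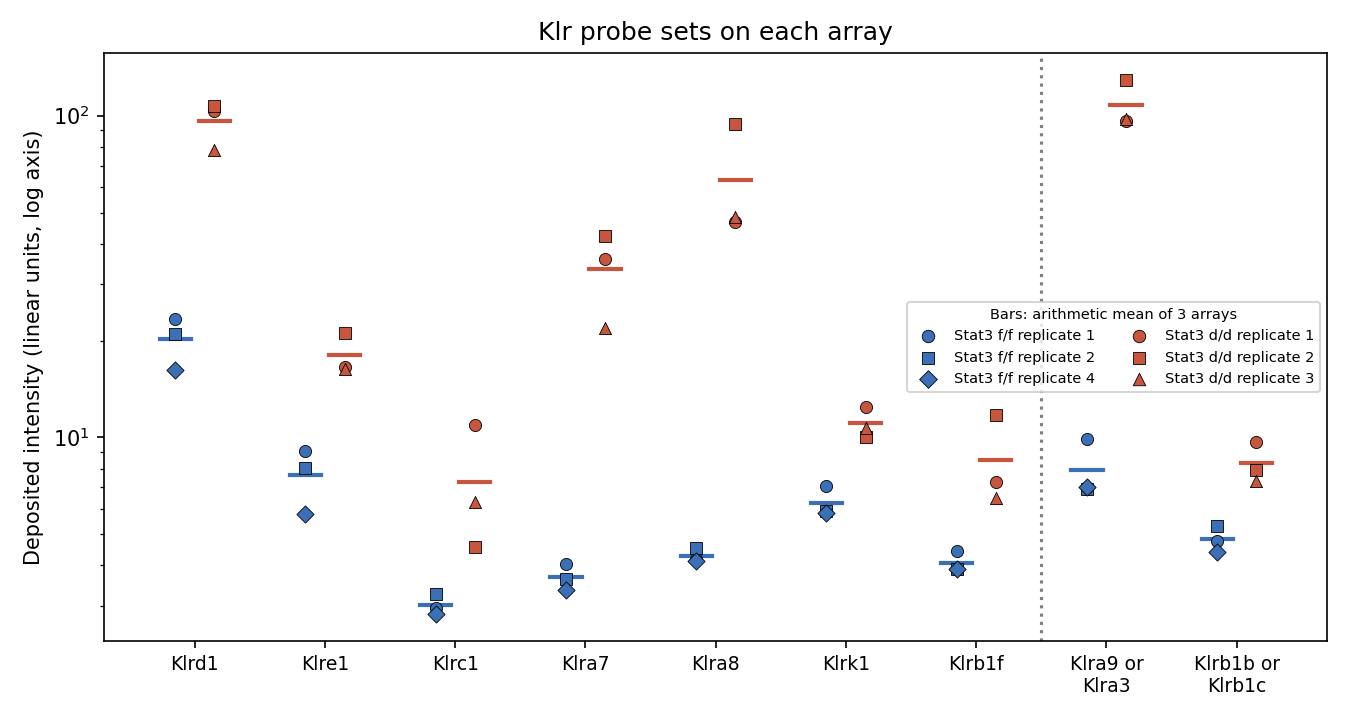
Deposited intensity (log axis) of the 7 Klr probe sets, and right of the dotted line 2 probe sets annotated to a pair of Klr genes, on each of 3 Stat3 f/f (blue) and 3 Stat3 d/d (red) arrays; symbols mark replicates and bars the arithmetic means. No groups overlap, which holds for all 1382 probe sets of the selected table. Klra8 has the widest gap of the 7 (4.12 to 4.52 against 46.6 to 94.0), and Klrc1, Klrk1 and Klrb1f have narrow ones.

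The arrays did not rank alike for every gene. Stat3 d/d replicate 2 was the highest array for 5 of the 7 genes and replicate 1 for the other 2, Klrc1 and Klrk1. For Klrc1 and Klrk1, replicate 2 was the lowest of the 3 Stat3 d/d arrays. Stat3 f/f replicate 4 was the lowest array for 6 of the 7 genes, the exception being Klrb1f, where replicates 2 and 4 read 3.89 and 3.90.

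**Figure D2:**
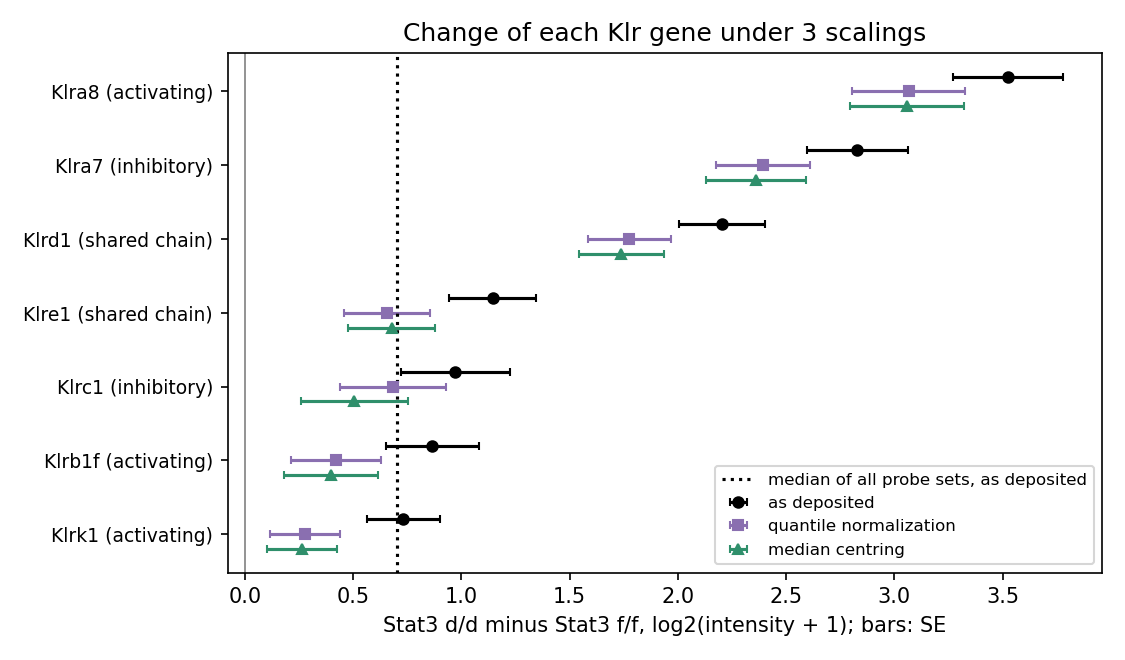
Change of each Klr gene, Stat3 d/d minus Stat3 f/f on the log2(intensity + 1) scale with SE (3 arrays a group), as deposited (black), after quantile normalization (purple) and after median centring (green); the dotted line is the median change of all 1382 probe sets, 0.70. Klra8, Klra7 and Klrd1 lie above the line under all 3 scalings, and Klrk1 falls from 0.73 to 0.27. The line applies to the values as deposited, and the medians after either scaling are lower.

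The comparison of activating with inhibitory receptors showed no separation by class. Changes ranged from 0.73 to 3.52 for the 3 activating receptors and from 0.97 to 2.83 for the 2 inhibitory ones, and were 1.14 and 2.20 for the shared chains, so the ranges overlap. The per-array mean log2 value of the activating receptors was 2.61, 2.51 and 2.47 in Stat3 f/f and 4.12, 4.57 and 4.02 in Stat3 d/d, a difference of 1.71. For the inhibitory receptors it was 2.16, 2.15 and 2.03, then 4.39, 3.95 and 3.69, a difference of 1.90. Replicate 2 led the activating mean and replicate 1 the inhibitory mean. Klra8 had the largest change of the activating and Klra7 of the inhibitory receptors, and their differences from the other receptors of their class were not tested. Klra8 and Klra7 thus set the upper end of each range, and their x_at probe sets may share signal. The other receptors, Klrk1 (0.73), Klrb1f (0.87) and Klrc1 (0.97), lay near the floor in Stat3 f/f, so the class comparison is limited.

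Klra8 rose more than Klra7 by 0.70 on the log2 scale, a difference that did not pass the threshold (SE 0.36, adjusted p = 0.0525 with moderation), while 0.579% of probe sets passed as rising more than Klra7. From the spread of this pair alone the 95% interval ran from -0.03 to 1.42 (adjusted p = 0.0608). The excess of Klra8 was 0.19, 0.96 and 0.94 in Stat3 d/d replicates 1, 2 and 3, so it was small in replicate 1. The data neither separate the activating from the inhibitory Ly49 receptor nor show that they rose alike. In the moderated fit, where every value contains Klra7 and p-values come out too small, it passed without Stat3 d/d replicate 1 (0.95, adjusted p = 0.0296) and without replicate 3 (0.58, adjusted p = 0.0477). In the same fit it also passed with the replicate number as a block (0.61, adjusted p = 0.0383) and with a pseudocount of 16 (0.61, adjusted p = 0.0152).

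Each gene was then set against Klrd1, the chain that Klrc1 needs as its partner, by testing the difference between the changes. Because every value in that fit contains Klrd1, the moderated limma p-values take its spread for many independent ones and come out too small. The p-values that follow therefore rest on the spread of each probe set's own difference, without moderation, adjusted over the 1381 other probe sets. In this fit 1.45% of probe sets rose more than Klrd1 and 83.2% less (1.74% and 89.0% with moderation). The exact permutation test of 3 arrays against 3 gave 0.10 for each of the 7 pairs, the smallest p it can give, and 0.10 after adjustment over the 7. Klrd1 and all genes set against it entered the table by selection on this same comparison. No p-value or interval for a difference, with or without moderation, allows for that selection, and its effect on them was not tested. This holds for Klra8 minus Klra7 too.

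Klra8 rose more than Klrd1 by 1.32 (95% interval 0.47 to 2.17, adjusted p = 0.0170), and Klra7 by 0.62 (0.17 to 1.08, adjusted p = 0.0245). In all 3 Stat3 d/d arrays both excesses were above 0, from 0.85 to 1.80 for Klra8 and from 0.37 to 0.84 for Klra7. Both depend on the treatment of dim values: with a pseudocount of 16 the Klra8 excess was 0.28 (adjusted p = 0.203) and the Klra7 value turned to -0.33 (adjusted p = 0.133), both from the moderated fit. With moderation as planned, the Klra7 excess (adjusted p = 0.0424) did not pass when Stat3 f/f replicate 1 (0.0987) or 2 (0.104) or Stat3 d/d replicate 1 (0.102) or 2 (0.158) was left out.

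The other 4 genes rose less than Klrd1, as did most of the table. Klrc1, its inhibitory partner, rose less by 1.23 on the log2 scale (-1.23, 95% interval -2.26 to -0.20, adjusted p = 0.0357). In the 3 Stat3 d/d arrays this gap was -0.74, -1.90 and -1.05, widest in replicate 2. For Klre1 the difference was -1.06 (adjusted p = 0.00312), for Klrb1f -1.34 (adjusted p = 0.00559) and for Klrk1 -1.47 (adjusted p = 0.00390). These 4 genes had Stat3 f/f means of at most 7.64, near the floor, and its part in the differences was not tested.

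**Figure D3:**
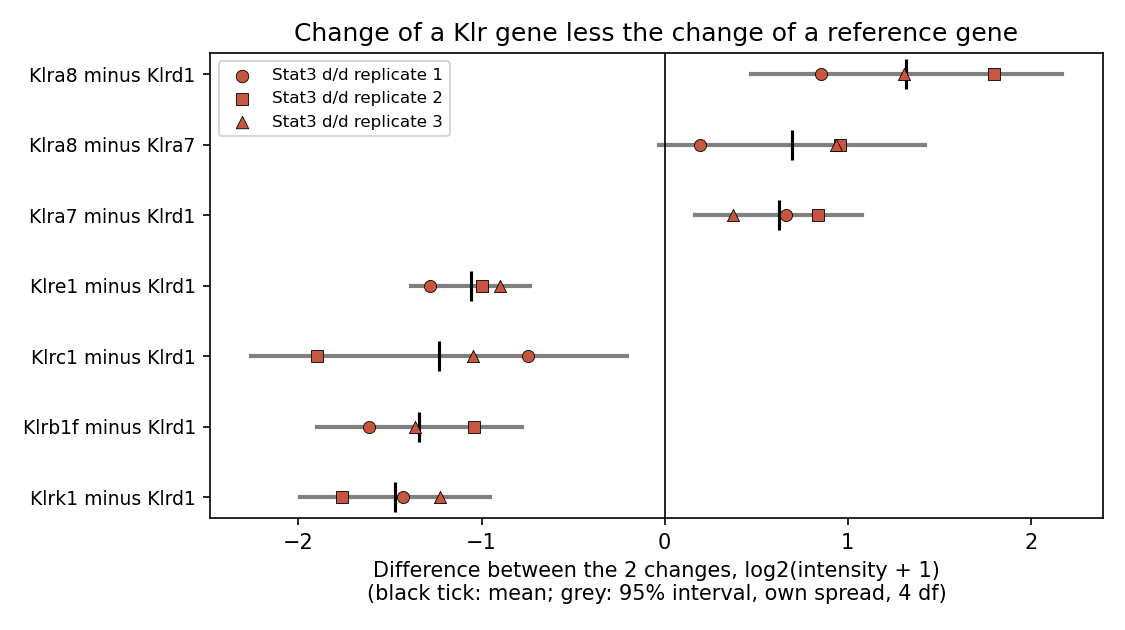
Difference between the change of a Klr gene and that of a reference gene on the log2(intensity + 1) scale, for the 3 Stat3 d/d arrays (symbols) relative to the Stat3 f/f mean, with the mean (tick) and 95% interval from the pair's own spread (grey, 4 degrees of freedom). Klra8 and Klra7 lie above Klrd1, the other 4 genes below, and the interval of Klra8 minus Klra7 crosses 0. The intervals do not allow for the selection of the table on this comparison.

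A pair of further probe sets carried 2 Klr symbols each and were not assigned to a gene. The one annotated to Klra9 and Klra3 read 9.87, 6.91 and 7.0 in Stat3 f/f and 96.5, 129 and 97.9 in Stat3 d/d. Its change of 3.61 (SE 0.20) was of the size seen for Klra8 and Klra7, and it too carries the x_at suffix. The probe sets of Klra8, Klra7 and this pair may read overlapping transcripts, so the counts above that hold both Klra8 and Klra7 may count 1 signal more than once, which was not tested. The probe set annotated to Klrb1b and Klrb1c, the latter encoding the NK1.1 antigen, read 4.75, 5.32 and 4.39 in Stat3 f/f and 9.67, 7.91 and 7.34 in Stat3 d/d, a change of 0.67 (SE 0.17). Of 23 other Klr genes listed for this comparison, 0 had a probe set of their own in the table, and they were not analysed here.

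Partners of the receptors were taken from lists fixed by name, and members outside the table were not analysed. Of 19 adaptors and kinases of activating receptors, 3 were in the table and all 3 were called higher, with a median of 0.97, beside 67.4% of the whole table; every probe set in it is called, so a count of calls here and in the lists that follow gives only the direction. Fcer1g, the FcR gamma chain that carries the signal of several activating receptors, rose from 80.2 ± 26.9 to 196 ± 68.5 (1.28, SE 0.30). Lcp2 (SLP-76), a scaffold protein, rose by 0.97 (SE 0.25) and the exchange factor Vav1 by 0.62 (SE 0.18). After median centring Fcer1g alone of these 3 kept its call, where 30.5% of the table was called higher. With 45000 assumed tests Fcer1g lost its call too (adjusted p = 0.0865), where 28.0% of the table was called higher. Of the 3 phosphatases of inhibitory receptors, Ptpn6 alone was in the table, and it rose from 21.2 ± 3.74 to 41.7 ± 9.10 (0.94, SE 0.21; 0.47 after median centring, adjusted p = 0.0623).

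Of 20 ligand genes, 4 were in the table and all 4 were called higher (median 1.17), against 67.4% of the table. H2-D1 and H2-K1, classical MHC class I heavy chains bound by Ly49 receptors, rose by 1.33 (SE 0.22) and 1.15 (SE 0.23). The change over the 5 H2-D1 probe sets ranged from 0.77 to 1.45, and over the 4 of H2-K1 from 0.82 to 1.39. B2m, the light chain of class I, rose by 1.03 (SE 0.22), and by 0.36 under quantile normalization (adjusted p = 0.153), where its call was lost. H60c, a ligand of Klrk1, rose from 3.79 ± 0.40 to 9.99 ± 1.97 (1.19, SE 0.19). The gene of Qa-1, H2-T23, was read only by 2 probe sets that also carry the symbol H2-T-ps, at 0.68 and 1.03.

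Of 29 other natural killer cell receptor genes, 4 were in the table and 4 were called higher (median 0.91), against 67.4% of the table. The interleukin-15 receptor chain Il2rb rose from 9.88 ± 1.49 to 27.3 ± 6.44 (1.36, SE 0.20), and Ncr1 (NKp46), a receptor found on nearly all natural killer cells, from 9.66 ± 0.78 to 24.1 ± 8.16 (1.18, SE 0.24). Cd244a, the receptor 2B4, and the chemokine receptor Cxcr3 rose by 0.63 (SE 0.19) and 0.58 (SE 0.19), and neither kept its call after median centring or quantile normalization. Of 16 transcription factors, 4 of 4 in the table were called higher (median 0.79, against the same 67.4%), with Eomes at 1.40 (SE 0.20), Ikzf2 at 0.79 (SE 0.19), Id2 at 0.78 (SE 0.21) and Runx3 at 0.50 (SE 0.17). After either scaling Eomes alone of these 4 kept its call. The shares of the table called higher were then 30.5% (median centring) and 31.7% (quantile normalization). The second Eomes probe set gave 0.90.

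**Figure D4:**
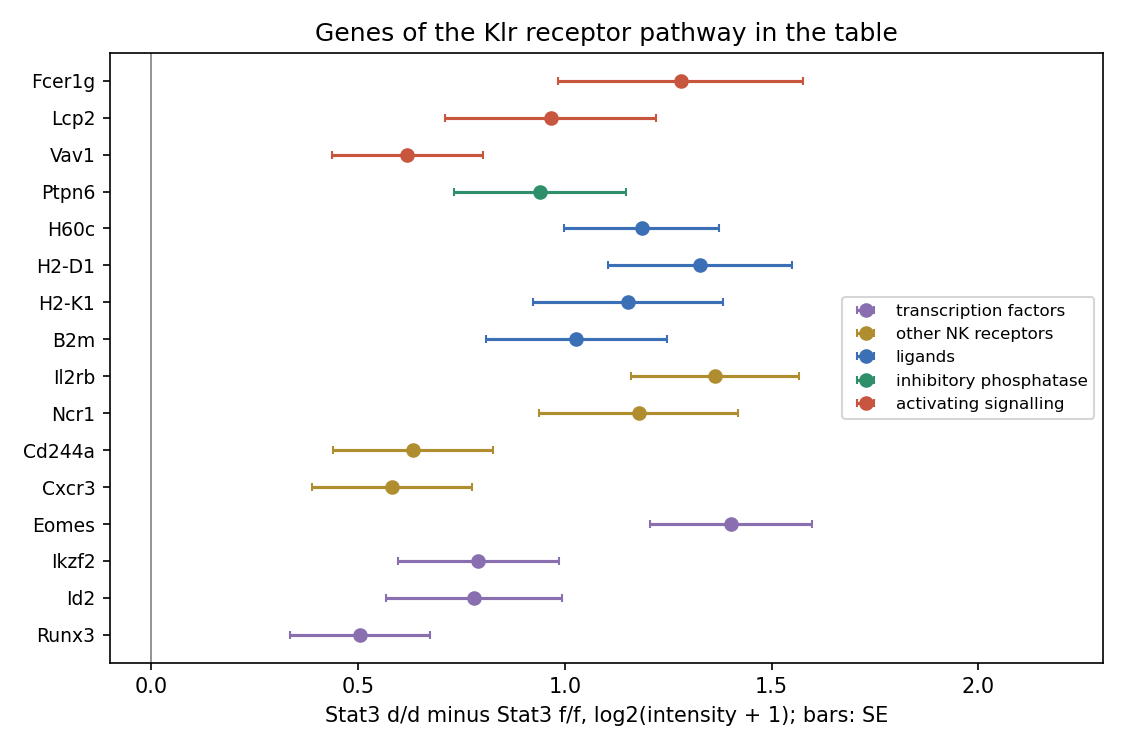
Change, Stat3 d/d minus Stat3 f/f on the log2(intensity + 1) scale with SE (3 arrays a group), of the genes in the table that signal for Klr receptors, bind them or are other receptors and transcription factors of natural killer cells. All 16 genes lie above 0, from Runx3 at 0.50 to Eomes at 1.40, and the table was selected on this comparison.

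Cytotoxic effector genes gave 11 called higher of 11 in the table, from 22 listed (median 1.08), against 67.4% of the table. Gzmb, granzyme B, rose from 21.6 ± 10.9 to 113 ± 38.4, and Nkg7, a granule membrane protein, from 21.1 ± 6.93 to 78.4 ± 22.5. The chemokine Ccl5 rose by 1.85 (SE 0.30) and the protease Ctsw by 1.08 (SE 0.19). After median centring 6 of the 11 kept their call (30.5% of the table called higher), 8 after quantile normalization (31.7%) and 5 with 45000 assumed tests (28.0%).

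Markers of natural killer and other cells were read beside the Klr genes. Of 9 natural killer markers, 6 had a probe set of their own in the table (Eomes, Il2rb, Nkg7, Gzmb, Ncr1 and Gzma), some shared with the lists above. Klrb1c, also listed, was read only by the probe set shared with Klrb1b, at 0.67, below the table median of 0.70. The summed intensity of the 6 was 65.9 to 122 in Stat3 f/f and 247 to 418 in Stat3 d/d. All 6 kept their call after median centring (30.5% of the table called higher), quantile normalization (31.7%) and with 45000 assumed tests (28.0%). The table was selected on this comparison. Of 10 T cell markers, 2 were in the table: Cd3g rose from 4.12 ± 0.58 to 11.6 ± 5.88 and Thy1 fell from 461 ± 102 to 269 ± 33.0. Cd3g and Thy1 kept their calls after median centring (adjusted p = 0.0466 and 0.000498) and quantile normalization (adjusted p = 0.0425 and 0.000434). With 45000 assumed tests Cd3g and Thy1 lost them (adjusted p = 0.117 and 0.171). Their summed intensity, mostly Thy1, was 353 to 553 in Stat3 f/f and 246 to 308 in Stat3 d/d. The sum follows Thy1 and hides the opposite change of Cd3g, so it is not read as a measure of T cells. Klrd1, Klrc1 and Klrk1 are also found on some T cells, and the part of T cells in their values was not tested.

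Of 7 macrophage markers, 2 were in the table (Adgre1 and Fcgr1), with summed intensities of 48.1 to 84.4 in Stat3 f/f and 112 to 204 in Stat3 d/d. Neither gene kept its call after median centring (adjusted p = 0.0685 and 0.0953), after quantile normalization or with 45000 assumed tests. For dendritic cell markers (2 of 5 in the table, Itgax and Cd209a) the sums were 11.6 to 14.1 and 30.7 to 35.5. Like the natural killer markers, Itgax and Cd209a kept their calls after median centring, quantile normalization and with 45000 assumed tests. The shares of the table called higher there were 30.5%, 31.7% and 28.0%. Of the 5 B cell markers, Ighm alone was in the table, at 15.9 to 25.1 and 28.7 to 49.6. Ighm lost its call in each of those settings. Of 4 neutrophil, 5 uterine epithelial and 5 uterine stromal markers, 0 were in the table, so the labelled tissue could not be checked by them. No marker in the table was at 0. The part that any of these cells has in the Klr values was not tested.

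By the root mean square difference of log2 values over the 6 arrays, after taking off each gene's Stat3 f/f mean, the genes outside the Klr set nearest to Klrd1 were Nexmif, Ly86, AW112010, Xaf1 and Riok3, at 0.20, 0.22, 0.22, 0.23 and 0.23. Their changes were 2.02, 2.12, 1.93, 1.98 and 2.22. Among the Klr genes Klra7 was nearest to Klrd1, at 0.47, and Klrk1 farthest, at 1.06. Other probe sets of the same genes gave as little as 0.52 for Nexmif, -3.89 for Xaf1 and -0.95 for Riok3, so for these 3 genes the likeness holds for the probe set named, not for the gene. The measure follows the size of the change that selected the table and is given as a description.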

How the data were processed

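Per the labels' protocols, biotinylated cRNA was made from total uterine RNA for Affymetrix arrays. Groups follow the source names and replicate numbers the titles. The deposited intensities were made by the authors with RMA, per the submitters' processing notes, with no version given. They lie on a linear scale although RMA yields log2 values, and the source of that step and of the selection of probe sets is not given in the sources used here, nor are build and annotation.

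Probe sets were named by the platform annotation; the RefSeq gene table of GRCm38.p6 changed 0 symbols and gave the gene order. Values were taken as log2(intensity + 1). limma 3.58.1 in R 4.3.3 (lmFit, eBayes, two-sided) was fitted over all 1382 probe sets with all 6 arrays, with a Benjamini-Hochberg threshold of 0.05. Differences between changes were fitted after subtracting the log2 value of Klrd1 or Klra7 on each array. Windows were aligned globally with Biopython 1.88 (match 1, mismatch -1, gap opening -3, gap extension -0.5), and figures drawn with matplotlib 3.10.9. The fit of single changes was tested against set limits on simulated data with independently drawn probe sets. The fit of differences was run on the same data without such limits.

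Members and lists were chosen with earlier results of these data known. Named were all members, up to 4 genes of each other list with the smallest adjusted p, and the 5 genes nearest to Klrd1. Genes outside that rule (Clec7a, Clec1b, Gzma and those of shared probe sets) were named after their values were seen. Alternatives were scaling, pseudocount, a filter on dim probe sets, variance models, array weights, the replicate number as a block, leaving out each array, 45000 assumed tests, exact permutation tests and, chosen after seeing the data, no variance moderation. The number of arrays limits the precision.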

Additional observations from a re-analysis of the deposited data

How the results depend on the processing

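Changes of all 7 Klr genes stayed above 0 under every alternative run for them. The number called higher, 7, was 7 without any single array, but 4 after median centring, 4 with 45000 assumed tests (an assumed whole array) and 3 without the dimmest probe sets (mean under 13.4), a filter that removes the other 4 genes. With 45000 assumed tests, Klrc1, Klrk1 and Klrb1f lost their calls (adjusted p = 0.146, 0.0854 and 0.119). The median over the whole table, 0.70, became 0.24 with median centring and 0.25 with quantile normalization, and the share called higher fell from 67.4% to 30.5% and 31.7%. With 45000 assumed tests that share was 28.0%. The median centring and the quantile normalization were computed over the selected table alone, so array scaling cannot be told apart from the selection in them. Of 6 genes set against Klrd1, the number that rose more was 2 in the main moderated fit, beside 1.74% of the table. It was 0 with a pseudocount of 16, 1 without dim probe sets, 1 with 45000 assumed tests and 1 to 2 without single arrays. The number that rose less was 4, beside 89.0% of the table, and 0 without dim probe sets, as that filter removes these 4 genes. Shares of the table against Klrd1 under these alternatives are not given here. Klra7 minus Klrd1 turned to -0.33 with a pseudocount of 16. Klra8 minus Klra7 was 0.56 to 0.95 without single arrays, 0.61 with a pseudocount of 16 (adjusted p = 0.0152) and 0.61 with the replicate block (adjusted p = 0.0383), all from the moderated fit. Same-numbered arrays shared only a number (correlation of deviations 0.09 and 0.03), and the block changed no other call. Array weights were not run for differences from Klrd1 or Klra7, where their estimate did not converge. The signal of 6 of the 7 genes in Stat3 f/f lay near the floor, which limits their folds.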
